A study of Mus musculus with 12 samples.

Results

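Mouse embryonic stem (ES) cells without BAF250b were compared at 72 h and at 18 h after passaging. The arrays were chosen by their labels: the 8 arrays of the BAF250b-/- clones #4 and #7, 4 at 72 h and 4 at 18 h, out of 12 arrays in all. Each clone had 2 arrays at each time. The other 4 arrays held the wild-type parental line #3, 2 at 18 h and 2 at 72 h, and served here as the measure of what time alone did in cells with BAF250b. All lines carried the same strain label, a hybrid of B6,129 and CD1, and were derived from blastocysts. Apart from the knockout, no treatment was recorded beyond the time in culture. Each knockout line is a single clone, and the wild type is a single line, so a trait of a clone and a trait of the genotype cannot be told apart within a line. Total RNA was taken from one well per sample, labelled with Cy3 and hybridised against a Cy5-labelled reference pool of 11 mouse cell lines, with no dye swap. Every level below is the log2 ratio of sample to reference, so that 0 is the reference level. Each change is the level at 72 h minus the level at 18 h.

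BAF250b, the product of Arid1b, is an ARID-domain subunit of the SWI/SNF (BAF) complex, which uses ATP to move or evict nucleosomes and so changes how accessible DNA is to transcription factors. ES cells keep a self-renewing, undifferentiated state through a network of transcription factors, and this complex works at many of the same genes. The series is titled for the need for the BAF250b complex in keeping mouse ES cells undifferentiated, and the comparison of times asks what happens to the transcriptome of the knockout lines as the culture ages after passaging.

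The array carried 42006 different 60-base probes, and the deposited files pair none of them with a gene symbol. Gene names used here come only from exact matches of at least 20 bases between a probe and the RefSeq windows around gene starts (GRCm38.p6, 250 bases before to 50 after each start) or the RefSeq microRNA hairpins. Of 530 probes with a match in a start window, 305 lay in a single gene on the probe's strand, 165 of them over the start itself and 140 elsewhere within the gene's span, because the window of a neighbouring gene reached that far. Whether such a stretch is exon, intron or UTR was not determined. The transcript of the targeted gene, the pluripotency factors and the 54 cell type markers had no placed probe, so neither the knockout nor the labelled cell type could be checked here. Of 15 gene lists, only 2 members were placed. Acta2 from the mesoderm list (−0.01, adjusted p = 0.81) and Stc2 from the stress list (0.01, adjusted p = 0.79) did not pass the test.

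The sequences behind the clearest named results are shown first. The Mir295 probe covers 44 bases of the precursor hairpin of an ES-cell microRNA at chr7:3220798-3220841 on the plus strand, and the capitals mark the 23 bases of the mature microRNA inside it, which start at base 18 of the probe. In the mature sequence below it (chr7:3220815-3220837), the capitals mark the seed, bases 2 to 8, by which a microRNA finds its target RNAs.
Mir295 probe: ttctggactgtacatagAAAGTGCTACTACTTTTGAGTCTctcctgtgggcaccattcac
mmu-miR-295-3p: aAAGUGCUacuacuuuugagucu

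For the 4 placed protein-coding genes with the largest rise and the 4 with the largest fall, 30 bases of the probe are given 5′ to 3′ on the gene's strand, so that the measured stretch can be found in the genome. The Cyba and Rpl10a stretches lie over the start of the gene. The Zbtb22, Zfp512b and Mllt6 probes end 12, 14 and 67 bases before the annotated 3′ end, the Zmynd10 probe 287 bases before it, and the Ndufb11 and Dclre1b probes 1997 and 2274 bases before it.
Zmynd10 (chr9:107550975-107551004, plus strand): agcactgggagaagcacggaaagacatgtg
Cyba (chr8:122432912-122432941, minus strand): ggccgatcagtgaggacttgcgaagtgggc
Ndufb11 (chrX:20617353-20617382, minus strand): tctatttagcaaggtaagggcggagcgaca
Rpl10a (chr17:28328570-28328599, plus strand): caaagcgctctgccttctttccggtttccg
Zbtb22 (chr17:33919254-33919283, plus strand): gacacaaggtgggagccgcgtagtataggt
Mllt6 (chr11:97685346-97685375, plus strand): gcatagcctgggtcttgtatctttgtataa
Zfp512b (chr2:181582147-181582176, minus strand): tgcggtggtgggccatcaactatgtattaa
Dclre1b (chr3:103802887-103802916, minus strand): cagcagctcttctgaagcttttcatgaagt

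The knockout cells changed broadly between 18 h and 72 h. Of 42006 probes tested, 14667 (34.9%) passed an adjusted p of 0.05 in limma with the clone as a block, 6370 of them higher at 72 h (15.2% of all probes) and 8297 lower (19.8%). The balance of rises and falls depended on the processing. With the sample channel alone, which also replaced loess by quantile normalisation between arrays, 4996 probes were higher and 4710 lower. Most changes were small: 6568 of the 14667 were under 1.25-fold, and the median size of a called change was 0.36 on the log2 scale. A change of at least 2-fold was called for 1026 probes (2.44%), 399 higher and 627 lower, and a change of at least 4-fold for 50 probes, 17 higher and 33 lower. Calls depended on brightness: 9.86% of the dimmest 10502 probes and 63.5% of the brightest 10502 were called. Of 41558 probes measured on all 8 arrays, 14309 (34.4%) had 4 levels at 72 h that did not overlap the 4 at 18 h.

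As a whole the arrays were of similar quality. The median sample intensity of the 12 arrays ran from 513 to 653, against negative control medians of 403 to 416, and 89.9% to 97.3% of probes exceeded the negative controls' 95th percentile. The 2 arrays of a group differed with an SD across probes of 0.09 to 0.12, except the 72 h arrays of clone 7, where it was 0.25. The second array of that group has a streak in the reference channel. On it 490 probes read over 2-fold lower than on the first array, 345 of them in tiles of the array where its reference signal departed from that of the other knockout arrays. The titles give the paired knockout arrays different culture letters, but no label says what a letter stands for. Both wild-type arrays at 18 h carry the letter A and may be repeats of 1 culture. With either of them left out, KO minus WT was called for 8090 or 8126 probes. The p-values therefore reflect only the scatter among these arrays, part of which may be technical. In such bulk RNA, fewer cells of a type and less RNA per cell cannot be told apart.

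The Mir295 probe fell by 1.09 on the log2 scale (SE 0.14, 2.12-fold, adjusted p = 3.1e-04) in the knockout clones. Mir295 belongs to a cluster of microRNAs that is among the most abundant in undifferentiated mouse ES cells and declines when they differentiate. Clone 4 went from levels of 3.05 and 3.03 at 18 h to 2.18 and 1.60 at 72 h. Clone 7 went from 3.12 and 3.51 to 2.43 and 2.16. All 4 arrays at 72 h were below all 4 at 18 h, and the raw sample intensity went from between 2371 and 2965 to between 1043 and 1238. The transcript thus stayed above the reference level at 72 h in every knockout array. Wild-type levels were 2.78 and 2.77 on the arrays at 18 h and 2.83 and 2.73 on those at 72 h (change 0.01, adjusted p = 0.99). The fall in the knockout exceeded the change in the wild type by 1.09 (SE 0.22, adjusted p = 0.0057). The probe reads RNA of the precursor, and the mature microRNA was not measured apart from it.

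Of 6 probes over microRNA hairpins, 3 were lower at 72 h and none was higher, where 19.8% of all probes were lower and 15.2% higher. Besides Mir295 these were Mir686 (−0.41, adjusted p = 1.9e-05) and a probe on the strand opposite to Mir6340 (−0.19, adjusted p = 0.0028). The Mir686 probe matched its hairpin over 24 bases only and held no mature microRNA. The probes over Mir199a-2 (−0.08) and Mir8120 (0.06) did not pass the test, and the Mir682 probe was saturated at 72 h. The complement of the miR-295 seed, AGCACTT, stood in 239 of the 42006 probe sequences (0.569%), searched on the probe strand. Of these 239 probes, 37 rose (15.5%, against 15.2% of all probes) and 55 fell (23.0%, against 19.8%), shares near those of all probes, with a median change of −0.03 against −0.01 over all probes. A 60-base probe covers a small piece of a transcript, so these counts describe probe sequences and not target genes.

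Among the 305 placed probes, 31 rose and 31 fell, which is 20.3% against 34.9% of all probes, and 5 changed at least 2-fold. Of the 221 in protein-coding genes, 27 rose and 23 fell. Of the 84 in long noncoding RNA genes, 4 rose and 8 fell. Probes over a gene start were called less often (22 of 165) than those within a span (40 of 140), a difference that was not tested. The genes are described by what their products do, and the groups were formed after their values were seen, so the counts are descriptions.

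Zmynd10, a cytoplasmic factor needed to assemble the dynein arms of motile cilia, had the largest rise of a placed gene with normexp and loess. Its probe read −0.09 and −0.10 in clone 4 and −0.17 and −0.02 in clone 7 at 18 h. At 72 h it read 1.75 and 1.59 in clone 4 and 1.93 and 1.92 in clone 7. The groups did not overlap, and the change was 1.89 (SE 0.07, 3.71-fold, adjusted p = 2.3e-07). Wild-type levels stayed between −0.14 and 0.11 at both times, and the knockout rose by 1.73 more than the wild type (adjusted p = 1.8e-06). The signal was dim, with raw intensities of 441 to 461 at 18 h, near the negative controls, and 620 to 653 at 72 h. The size of the change rests on the background correction of this dim probe: it was 0.69 without any, below the 0.73 of Rps27rt, and 2.45 with the authors' processed signals, and it passed the test in each case.

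Cyba encodes p22phox, the membrane subunit shared by NADPH oxidases. Its levels were −0.04, −0.05, −0.04 and 0.03 at 18 h and 1.07, 0.99, 1.06 and 1.25 at 72 h, in the order of clone 4 and then clone 7. The change was 1.12 (SE 0.05, 2.18-fold, adjusted p = 6.7e-07), and the wild type lay between −0.09 and 0.03 on all 4 arrays. The knockout rise exceeded that of the wild type by 1.11 (adjusted p = 2.0e-05). Without background correction the change was 0.52 (adjusted p = 1.0e-05). This probe matches the genome over 51 bases across the gene's start.

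Of the 4 probes for subunits of NADH dehydrogenase, the first complex of the respiratory chain, 3 were called, and they did not move together. Ndufb11 rose from 1.12, 1.20, 1.15 and 1.17 to 1.87, 1.92, 2.03 and 2.04 (change 0.80, SE 0.04, adjusted p = 1.4e-06). Ndufa9 rose by 0.42 (SE 0.04, adjusted p = 9.1e-05), from levels between −0.69 and −0.62 to levels between −0.34 and −0.15. Ndufa11 fell by 0.39 (SE 0.03, adjusted p = 1.8e-05), from between 2.08 and 2.15 to between 1.68 and 1.75. The probe for Ndufa13 differed by −0.06 and did not pass the test. Each of the 3 called changes differed from that in the wild type, by 0.61 for Ndufb11, 0.40 for Ndufa9 and −0.23 for Ndufa11. The last of these was lost with the sample channel alone (adjusted p = 0.26), with median centring (0.12), without background correction (0.25) and without either of 2 wild-type arrays (0.10 without the second at 18 h and 0.096 without the second at 72 h).

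Ribosomal protein genes, whose products build the ribosome's subunits, had 7 placed probes, of which 5 rose and 1 fell (85.7% called, against 34.9% of all probes and 20.3% of placed probes). All 7 exceeded the negative controls on all 8 arrays, and of all probes that did so 39.0% were called. Brighter probes were called more often, and no share matched for brightness was computed. The median change of the 7 probes was 0.39, against −0.01 over all probes. Rpl10a rose from 1.09, 0.79, 0.94 and 1.01 to 1.86, 1.94, 1.64 and 1.52 (change 0.79, SE 0.09, adjusted p = 1.8e-04). Rps27rt, a retrogene copy of Rps27, rose from 0.95, 0.82, 0.95 and 0.97 to 1.72, 1.71, 1.67 and 1.72 (change 0.78, SE 0.04, adjusted p = 1.7e-06). The other rises were smaller: 0.52 for Rpl26, 0.39 for Rps27l and 0.39 for Rpl38. Fau, which encodes the small-subunit protein S30 fused to a ubiquitin-like protein, had a probe that fell by 0.33 (adjusted p = 2.6e-04) and a second probe at −0.06 that did not pass. Against the wild type the change was larger for Rps27rt (0.67), Rpl10a (0.51) and Rpl26 (0.29) and lower for Fau (−0.44), while Rpl38 (−0.10, adjusted p = 0.63) and Rps27l (0.12, adjusted p = 0.34) were not called. With the sample channel alone the fall of Fau (adjusted p = 0.060) and the differences from the wild type for Fau (0.095), Rpl10a (0.10) and Rpl26 (0.24) did not pass. The difference for Rpl10a (0.0505) and Rpl26 (0.066) was also lost without the first wild-type array at 72 h, and that for Rpl26 (0.058) without the second at 18 h. Ribosomal protein genes have many near-identical copies in the mouse genome, and how far these probes read RNA of such copies was not tested.

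Smaller rises were called for Gm1673 (0.72), Ccdc33 (0.50) and Lemd3 (0.44), which encodes an inner nuclear membrane protein that binds SMADs. Pfdn5, a subunit of the prefoldin chaperone, rose by 0.35 (adjusted p = 0.018), and its probe matched over 21 bases only. Prdx1, a peroxiredoxin that removes hydrogen peroxide, had a probe that rose by 0.30 (adjusted p = 0.026) and another at 0.05 that did not pass. Both calls were lost when a single array was left out, that of Pfdn5 without the first clone 4 (adjusted p = 0.059) or first clone 7 (0.054) array at 18 h. That of Prdx1 was lost without each of 5 arrays (0.052 to 0.077) and with the sample channel alone (0.32). Lamb2, the laminin beta 2 chain of basement membranes, rose by 0.30 (adjusted p = 3.4e-04), from far below the reference at −3.16, −3.17, −3.17 and −3.30 to −2.92, −2.88, −2.92 and −2.88. Lamb2 in the wild type went the other way without passing the test (−0.18), and the knockout change was higher by 0.48 (adjusted p = 0.0016). Of 6 histone gene probes, H3f3a (0.29), one of the genes for the replacement histone H3.3, and H2ac18 (0.09) rose and none fell (33.3% called, against 34.9% of all probes). The H3f3a call was lost with the sample channel alone (adjusted p = 0.40). KO minus WT was not called for H3f3a, for Pfdn5 or for the Prdx1 probe that rose. In the group of olfactory receptor, vomeronasal receptor and defensin genes, which ES cells are not known for expressing, 1 of 36 probes was called (2.78%, against 20.3% of placed probes), Defb45 at 0.20.

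Zbtb22, a BTB-domain zinc finger protein, and Mllt6 had the largest falls of placed protein-coding genes. Zbtb22 came first with normexp and loess, and Mllt6 fell more without background correction (−1.11 against −0.89), with median centring (−1.36 against −1.32) and with the sample channel alone (−1.41 against −1.10). Zbtb22 levels were −0.47, −0.47, −0.45 and −0.52 at 18 h and −1.80, −1.79, −1.69 and −1.63 at 72 h. All arrays at 72 h were below all at 18 h, with a change of −1.25 (SE 0.04, 2.38-fold lower, adjusted p = 1.8e-07). The wild type also fell, by 0.25 (adjusted p = 0.0049), and the knockout fell by 1.00 more. Of 7 probes in genes named Zfp or Zbtb, none rose and 3 fell (42.9% called, against 34.9% of all probes and 20.3% of placed probes). Zfp512b fell by 0.94 (SE 0.03, adjusted p = 1.6e-07), from between 0.10 and 0.17 to between −0.81 and −0.77, with wild-type levels between 0.03 and 0.20. Zbtb8a fell by 0.75 (SE 0.08, adjusted p = 1.0e-04), from 1.86, 2.11, 2.03 and 2.26 to 1.19, 1.12, 1.57 and 1.39. Wild-type Zbtb8a levels were 1.17 and 1.33 on the earlier arrays and 1.46 and 1.73 on the later ones, and the difference between the 2 changes was −1.10 (adjusted p = 5.4e-04).

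Mllt6, a PHD-finger protein found as a fusion partner of the methyltransferase MLL in leukaemia, fell from 1.01, 0.85, 0.99 and 0.96 to −0.09, −0.18, −0.30 and −0.38. The change was −1.19 (SE 0.06, 2.28-fold lower, adjusted p = 1.9e-06). Mllt6 also fell in the wild type, by 0.45 (adjusted p = 0.0027), and fell by 0.74 more in the knockout (adjusted p = 9.5e-05). The long noncoding RNA gene Gm42373 fell by 1.07 (SE 0.08, adjusted p = 1.3e-05), from levels between −0.05 and 0.13 to levels between −1.34 and −0.69, on a match of 21 bases.

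Dclre1b, Gtf2h4 and Nabp2 are described next, without a count of genes of their kind. Dclre1b encodes Apollo, an exonuclease that protects telomeres and acts in crosslink repair. It fell from −0.24, −0.27, −0.17 and −0.24 to −1.14, −1.10, −1.27 and −1.17 (change −0.94, SE 0.04, adjusted p = 1.0e-06), while the wild type stayed between −0.25 and −0.19. Gtf2h4, a subunit of the TFIIH complex of transcription and nucleotide excision repair, fell by 0.59 (SE 0.03, adjusted p = 2.9e-06). Nabp2, a single-stranded DNA binding protein of the damage response, fell by 0.31 (adjusted p = 2.9e-04). The fall of Nabp2 was not larger than that of the wild type beyond the error (difference −0.06, adjusted p = 0.59), while that of Gtf2h4 was (difference −0.34, adjusted p = 0.0014). With the sample channel alone neither the fall of Nabp2 (adjusted p = 0.25) nor the difference for Gtf2h4 (0.061) passed.

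Among the remaining placed genes, Neurl4, a centriolar protein, fell by 0.90 (SE 0.03, adjusted p = 2.6e-07), from levels between 0.10 and 0.18 to levels between −0.78 and −0.73. Trmt112, the activating partner of several methyltransferases, fell by 0.49, and Trank1 by 0.38. For Trmt112 and Trank1 the difference from the wild-type change was not called. Plet1, named for its expression in the placenta, moved in opposite directions in the genotypes. In the knockout it fell from 3.28, 3.21, 3.32 and 3.39 to 2.91, 2.85, 2.97 and 3.10 (change −0.34, SE 0.04, adjusted p = 2.3e-04). In the wild type it rose from 3.28 and 3.27 to 3.48 and 3.59 (change 0.27, adjusted p = 0.023), and the difference between the changes was −0.61 (adjusted p = 2.1e-04). The knockout fall of Plet1 did not pass without background correction (−0.26, adjusted p = 0.12) or with the sample channel alone (−0.14, adjusted p = 0.41), and neither did the difference (0.12 and 0.074).

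**Figure D1:**
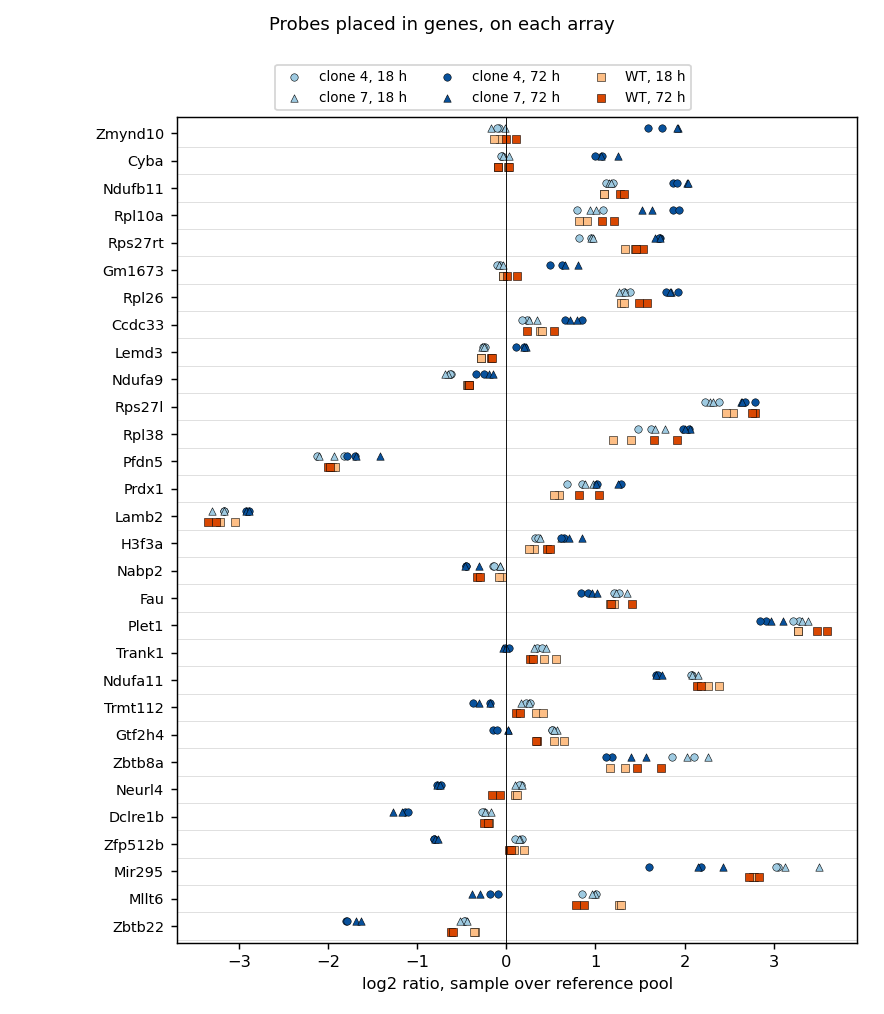
Level, as log2 of sample over the reference pool, of the placed protein-coding genes and the Mir295 probe that were called in the knockout clones with a change of at least 0.29, with 1 mark per array; circles are clone 4, triangles clone 7 and squares the wild type, pale at 18 h and dark at 72 h. The genes run from the largest rise, Zmynd10 (1.89), to the largest fall, Zbtb22 (−1.25), with normexp and loess, and Plet1 is a gene whose knockout and wild-type marks moved apart.

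The 12 probes with the largest rise and the 12 with the largest fall are given by the array's own identifiers, since none of them matched a start window. Rises ran from 4.45-fold to 7.52-fold and falls from 5.19-fold to 14.7-fold. The sizes depended on the background correction, without which the log2 changes ran from 1.55 to 2.35 and from −3.35 to −1.16, and 12 of the 24 fold changes moved by over 1.5 times, 4 rises and 8 falls. Z00003765-1 changed by −5.32 with the sample channel alone. The steepest fall was that of Z00003765-1. It stood at 4.26, 4.27, 4.31 and 4.24 at 18 h and at 0.32, 0.21, 0.49 and 0.54 at 72 h, in the order of clone 4 and then clone 7. The wild type stayed at 4.30 and 4.37 at 18 h and 4.26 and 4.21 at 72 h. The transcript was thus far above the reference in all 3 lines at 18 h, and at 72 h it was near the reference level in both knockout clones. Its change was −3.88 (SE 0.06, adjusted p = 2.4e-08) and its difference from the wild-type change was −3.78, while the raw intensity went from between 3524 and 7847 to between 447 and 464, close to the negative controls.

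Other leading falls had the same shape. Z00004353-1 went from −0.31, −0.44, −0.29 and −0.34 to −3.35, −3.40, −3.19 and −3.21 (change −2.94, SE 0.04), while the wild type lay between −0.46 and −0.35. Its raw intensity at 72 h was 443 to 489 in the knockout, close to the negative controls. Without background correction the change of Z00004353-1 was −1.52. Z00027744-1 went from between 1.53 and 1.71 to between −0.82 and −0.75 (change −2.40), with wild-type levels between 1.57 and 1.77. A second kind of probe fell in the wild type too, to a smaller extent. Z00036340-1 fell by 2.88 in the knockout and by 0.90 in the wild type, and Z00067144-1 fell by 2.84 and by 0.79. The knockout intensity of Z00036340-1 at 72 h was also close to the negative controls (453 to 479), and its change was −1.64 without background correction. The leading falls were chosen for the size of the knockout fall, which enters KO minus WT, so a larger fall in the knockout was favoured. Z00038199-1 had no level on the second wild-type array at 18 h, so its wild-type level at that time rests on the first (0.46). Of the 12 leading falls, 7 were also called lower in the wild type, and for 11 the knockout fell by more (KO minus WT called).

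Z00037130-1 was the exception, and its value rests on 1 array. At 18 h it stood at 1.80, 1.83, 1.88 and 1.86. At 72 h it stood at 0.08, −0.13 and 0.07 on 3 arrays and at −2.53 on the second clone 7 array, where the probe lies in such a departing tile. Its change was −2.47 (SE 0.51, adjusted p = 0.0054) with that array and −1.82 (adjusted p = 1.5e-07) without it. The latter is smaller than the −2.38 of the last of the 12 falls, so the probe owes its place among them to that array. No other leading probe lay in such a tile.

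The leading rise was that of Z00000892-1, from −1.58 and −1.63 in clone 4 and −1.35 and −1.46 in clone 7 to 1.40, 1.57, 1.52 and 1.13. Its change was 2.91 (SE 0.10, adjusted p = 2.8e-07). The wild-type level rose from −1.28 and −1.22 to −0.40 and −0.39, and the knockout rose by 2.05 more. Z00023081-1 rose by 2.86 (SE 0.04), from between −3.39 and −3.12 to between −0.47 and −0.34, with a wild-type change of 0.27. Z00039693-1 was already above the reference at 18 h, at 2.26, 1.99, 2.38 and 2.77, and reached 4.54, 4.34, 5.30 and 5.06. All 12 leading rises were also called higher in the wild type, and all 12 rose by more in the knockout, by 1.02 to 2.59. They were chosen for the size of the knockout rise, which enters KO minus WT, so a larger rise in the knockout was favoured by the choice. At 18 h the group mean was above the reference for 2 of the 12 probes that rose and 9 of the 12 that fell. At 72 h these counts were 11 and 3.

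**Figure D2:**
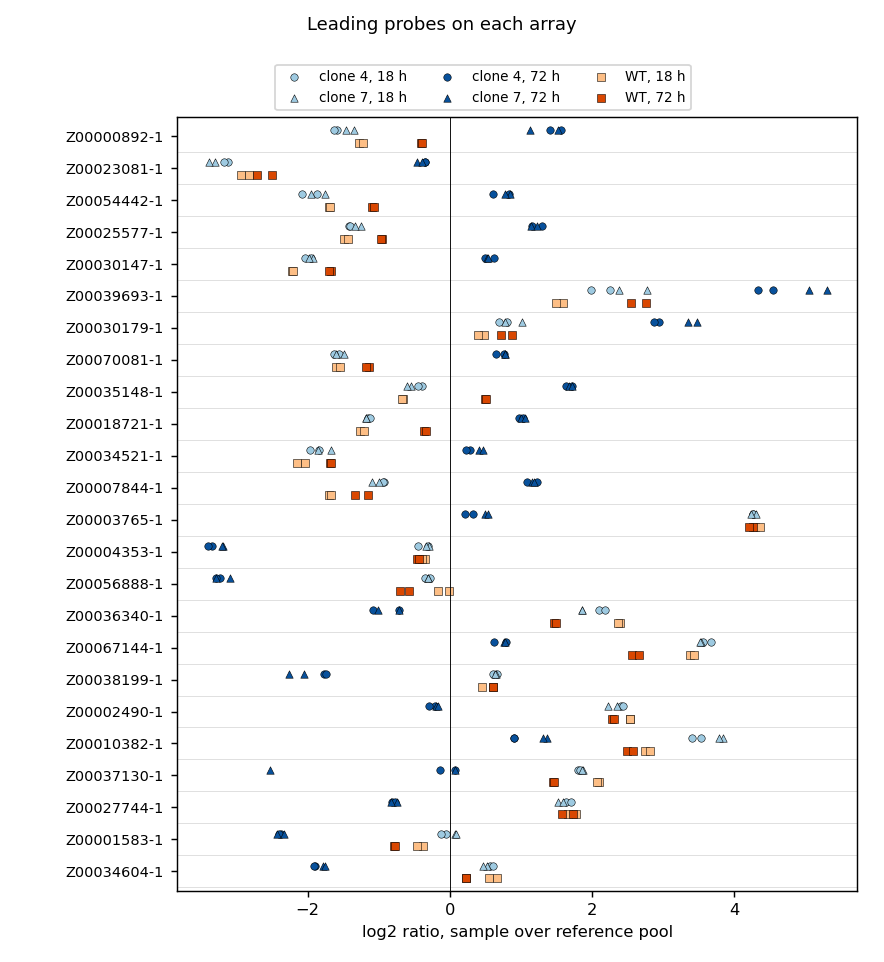
Level, as log2 of sample over reference, of the 12 probes with the largest rise and the 12 with the largest fall in the knockout clones, with 1 mark per array; circles are clone 4, triangles clone 7 and squares the wild type, pale at 18 h and dark at 72 h. The probes were chosen for having no overlap between the times in the knockout, so that gap is not a finding. The wild-type marks show how far each probe moved with BAF250b present, and the 1 stray point of Z00037130-1, at −2.53, is the streaked array.

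Both knockout clones gave the pattern. Within clone 4, 10925 probes (26% of those tested) were called, and within clone 7, 12618 (30%). Of these, 9674 were called in both clones in the same direction, which is 88.5% of the clone 4 calls and 76.7% of the clone 7 calls. They comprised 4020 probes that rose and 5654 that fell, while 12 probes were called in opposite directions. Across 42002 probes the changes in the clones had a Pearson r of 0.89 and a Spearman rho of 0.74, as a description over probes that share arrays. No probe (0%) was called for a difference between the clones' changes in limma, where 2960 had an unadjusted p under 0.05. Leaving out the first clone 7 array at 72 h, so that the streaked array stood alone for its group, gave 1000 calls. The image files of clone 7 were extracted on a different day from those of the other lines, so clone and day cannot be told apart, and the clone block takes up both.

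**Figure D3:**
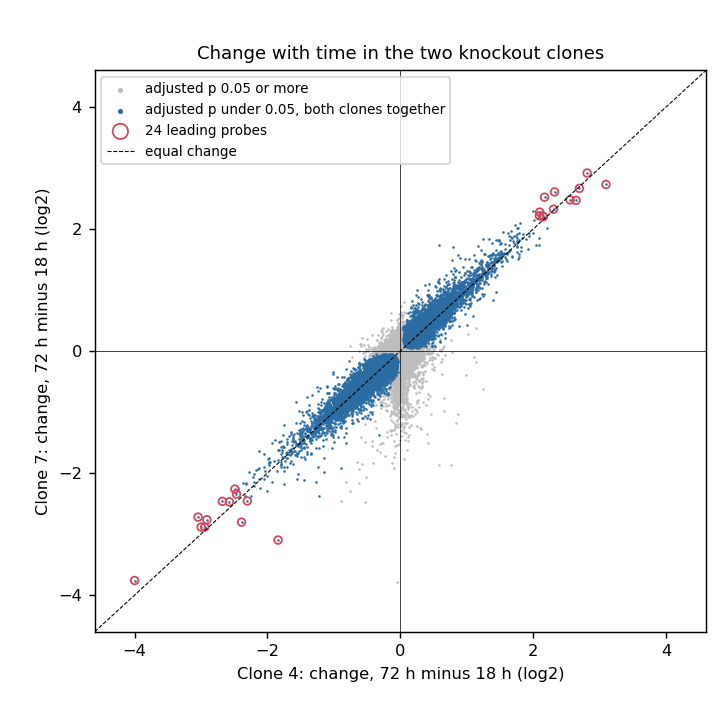
Change from 18 h to 72 h in clone 7 against that in clone 4, in log2 units, with 1 point per probe and the 24 leading probes marked. The points follow the diagonal with a Pearson r of 0.89, and a tail of probes lies near 0 in clone 4 and well below 0 in clone 7, the clone that holds the streaked array.

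The change with time was wider in the knockout than in the wild type. The SD across probes of the change was 0.34 in the knockout and 0.14 in the wild type, where 3488 probes (8.3%) were called, 1675 higher and 1813 lower, and 37 changed at least 2-fold. With the sample channel alone the wild-type calls were 527 higher and 278 lower. Leaving out any of the 4 wild-type arrays, at either time, brought the wild-type count to between 1570 and 1703. The knockout has 8 arrays and the wild type 4, so the counts of calls are not on equal terms, and the direct test is the difference between the changes. That difference, KO minus WT, was called for 10036 probes (23.9%), 4285 higher and 5751 lower, 704 of them by at least 2-fold. Of the 14667 probes called in the knockout, 9176 (62.6%) also differed from the wild type, 9107 of them in the direction of the knockout's own change. Of the 1026 probes that changed at least 2-fold in the knockout, 20 did so in the wild type in the same direction, and 985 differed between the genotypes. These sets were chosen for a knockout change that is itself part of KO minus WT. The agreement in direction and the shares that differed are therefore largely built in.

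The genotypes also had changes in common. Called in both in the same direction were 2460 probes, which is 70.5% of the wild-type calls and 16.8% of the knockout calls, while 438 were called in opposite directions. The changes in knockout and wild type had a Pearson r of 0.41 and a Spearman rho of 0.27 across probes. Of the 29 placed protein-coding probes called in the knockout with a change of at least 0.29, 21 also differed between the genotypes, a count that the choice by knockout change favours.

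**Figure D4:**
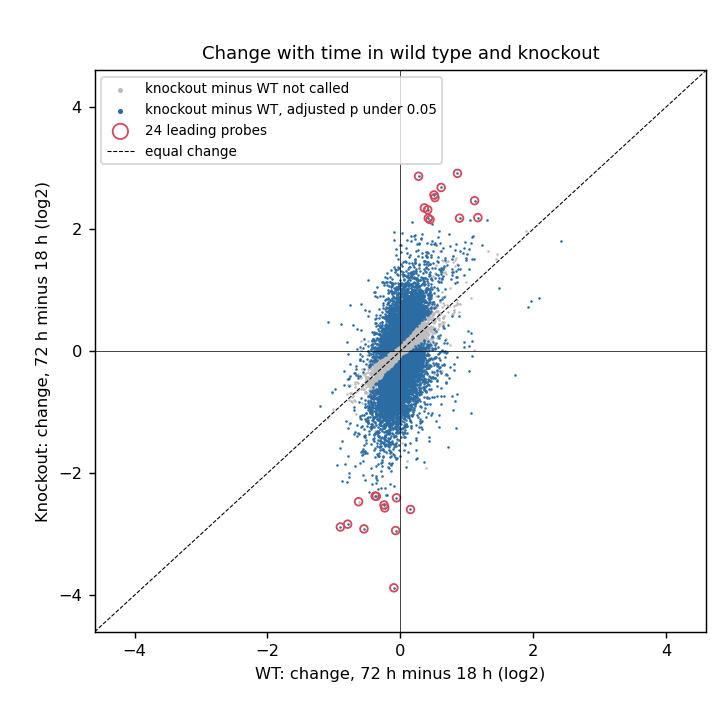
Change from 18 h to 72 h in the knockout clones against that in the wild type, in log2 units, with 1 point per probe and the leading probes marked. The cloud is taller than it is wide (SD 0.34 against 0.14), and the 24 leading probes lie beyond 2.15 in size in the knockout and within 1.17 of 0 in the wild type. The leading probes were chosen for the size of their knockout change, so their place is not a finding.

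The direction of change in the knockout went with the level that a transcript had in wild-type cells at 18 h, a measure from arrays that do not enter the knockout comparison. Where the wild type at 18 h exceeded the pool by 4-fold or more (896 probes), 65.3% fell in the knockout by 72 h and 10.6% rose, with a median change of −0.45. Of 2715 probes 2-fold to 4-fold above the reference, 59.9% fell and 18.4% rose. Of the 36443 probes within 2-fold of the reference, 15.8% fell and 13.9% rose. Of the 1318 probes 2-fold to 4-fold below it, 34.1% rose and 19.7% fell. Where the wild type was lower than the pool by 4-fold or more (632 probes), 38.4% rose and 10.4% fell, with a median change of 0.10. In both classes above the reference more probes fell than rose, and in both classes below it more rose than fell. With the sample channel alone, which leaves the reference channel out of the change, 59.3% of the top class and 45.6% of the class below it fell, against 12.9% and 17.4% that rose. In the lowest class 40.0% then rose and 5.70% fell, and in the class above it 33.5% rose and 10.1% fell. No test was made of these shares, since probes are not replicates. The classes are levels against the same reference pool, and they were not matched for brightness. Of the brightest 10502 probes 63.5% were called, and of the dimmest 10502 9.86%. A probe near background has little room to fall, and how far this set the shares was not tested.

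**Figure D5:**
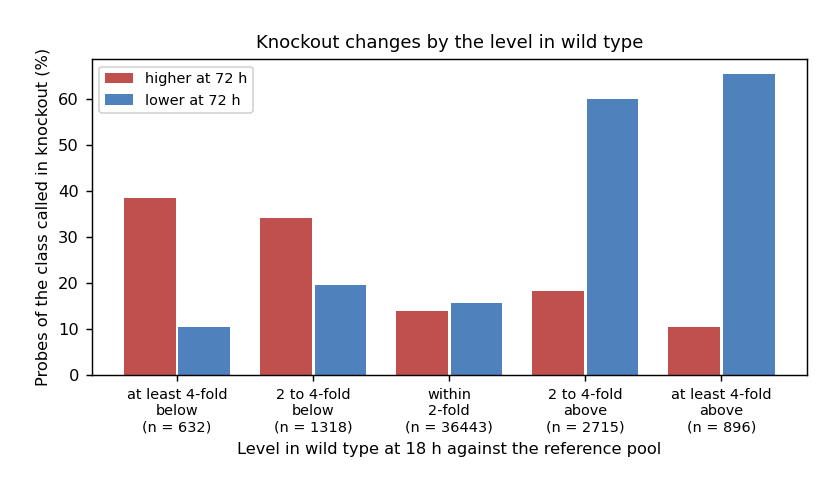
Percent of probes called higher and lower at 72 h in the knockout clones, by the probe's level in wild-type cells at 18 h against the reference pool. The share that fell is 10.4% in the lowest class and 65.3% in the highest, and the share that rose is 38.4% in the lowest class and 10.6% in the highest. The classes were not matched for brightness.

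The probe sequences differed slightly between called probes and all probes. The polyadenylation signal AATAAA, searched on the probe strand, stood in 6.75% of all probes, 8.74% of those that rose and 9.04% of those that fell. It stood in 13.3% of the probes at least 2-fold higher and 12.0% of those at least 2-fold lower, and in 5 of the 12 leading rises and 2 of the 12 leading falls. The median GC content was 43.3% over all probes and 40% in both sets of at least 2-fold change. A match is a description of the probe's letters, and AATAAA near a probe's end does not show that the site is used. Brighter probes were called more often, and no share matched for brightness was computed here.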

How the data were processed

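Two-colour Agilent arrays (44290 spots, 60-base probes) were scanned and extracted by the authors with Agilent Feature Extraction A.7.5.1, per the file headers. The deposited intensity of each channel (Cy3 sample, Cy5 reference) was used. Control spots and flagged spots (28 to 529 per array) were left out, spots of a probe were averaged, and the log2 ratio was taken after normexp background correction (offset 50) and loess within each array. The authors' series table, deposited on a log10 scale, was an alternative. The change with time was fitted with limma 3.58.1 (R 4.3.3) on the 8 knockout arrays as clone plus time, with Benjamini-Hochberg adjustment over all probes. Wild type and KO minus WT came from 6 group means over the 12 arrays, and each clone and the clone difference from 4 means over 8. The fit was tested on simulated data. The number of arrays limits the precision, and the median SE of a change was 0.04.

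The arrays, lists and tests were chosen with earlier results of these data known. Probes named by identifier are the 12 largest rises and 12 largest falls among probes that were called, measured on all 8 arrays, did not overlap between the times, were called in the same direction without the streaked array, and lay well above background on the higher side. The last condition is weak, since the scanner files give 99.9% to 100% of probes on each array as well above background. Gene lists and cell type markers could not be tested, since 2 list members and 0 of 54 markers were placed. The placed genes and their groups were chosen after their values were seen. Sequences and gene spans are RefSeq's (GRCm38.p6, 32851 start windows). Matches are exact, and copies elsewhere in the genome were not searched. The alternatives tried were background correction, normalisation, the sample channel alone (with quantile normalisation between arrays), flagged spots, thresholds, the blocks, the streaked region and leaving out each array.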

Additional observations from a re-analysis of the deposited data

Results flagged for a closer look

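The change from 18 h to 72 h differed between the knockout clones and the wild type for 10036 probes in limma. Among the 12 leading rises the difference, knockout minus wild type on the log2 scale, was 2.05 for Z00000892-1, 2.59 for Z00023081-1, 2.07 for Z00054442-1, 2.05 for Z00025577-1 and 1.99 for Z00030147-1. It was 1.35 for Z00039693-1, 1.98 for Z00030179-1, 1.90 for Z00070081-1, 1.02 for Z00035148-1, 1.29 for Z00018721-1, 1.76 for Z00034521-1 and 1.71 for Z00007844-1. Among the leading falls it was −3.78 for Z00003765-1, −2.87 for Z00004353-1, −2.37 for Z00056888-1, −1.98 for Z00036340-1, −2.04 for Z00067144-1 and −2.75 for Z00038199-1. It was −2.33 for Z00002490-1, −2.28 for Z00010382-1, −2.35 for Z00027744-1, −2.02 for Z00001583-1 and −1.99 for Z00034604-1. For Z00037130-1 the difference was not called. Z00038199-1 had no level on the second wild-type array at 18 h, so its difference rests on the first array at that time. The leading probes were chosen for their knockout change, which favours such a difference.

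The same difference was called for placed genes, which were also chosen by their knockout change. Those that rose more in the knockout were Zmynd10 (1.73), Cyba (1.11), Rps27rt (0.67), Gm1673 (0.61), Ndufb11 (0.61), Ccdc33 (0.51), Rpl10a (0.51), Ndufa9 (0.40), Lemd3 (0.31) and Rpl26 (0.29). Lamb2, whose change in the wild type was not called, had a difference of 0.48. The change was more negative in the knockout than in the wild type for Zbtb8a (−1.10), Zbtb22 (−1.0), Dclre1b (−0.91), Zfp512b (−0.84) and Mllt6 (−0.74). So it was for Neurl4 (−0.67), Plet1 (−0.61), Fau (−0.44), Gtf2h4 (−0.34) and Ndufa11 (−0.23). Of these, Plet1 was called higher at 72 h in the wild type, and wild-type Zbtb8a levels were also higher at 72 h. The Mir295 probe had a difference of −1.09.

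In 7 of 108 groups of 4 arrays, 1 array stood far from the other 3, and chance gives about 1 in 20 such groups. The level of Z00037130-1 at 72 h was −2.53 on the second clone 7 array, against −0.13 to 0.08 on the others, and the probe lies in a tile of that array where the reference signal departs from the other knockout arrays. Z00070081-1 at 72 h was 0.65 on the first clone 4 array, against 0.77 to 0.78. At 18 h the second array of clone 7 was away from its group for Lamb2 (−3.30), Ndufa11 (2.15) and Cyba (0.0313), and the second clone 4 array at 18 h for Rps27rt (0.82). Nabp2 at 72 h was −0.30 on the second clone 7 array, against −0.47 to −0.45.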

How the results depend on the processing

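Counts of called probes stayed within 1.5 times under most alternatives. The 54 probes followed through them were the 24 leading probes, 29 placed protein-coding probes and Mir295, and none changed direction. Other named probes, such as those of Acta2, Stc2 and Mir686, were not followed. With the sample channel alone, 9706 probes were called for time in the knockout, 6423 in clone 4, 6836 in clone 7, 5178 for KO minus WT and 805 in the wild type. The split then turned to more rises than falls in the knockout (4996 and 4710), in clone 7 (3633 and 3203) and in the wild type (527 and 278, from 1675 and 1813). Of 9042 shared knockout calls, 9040 kept their sign. Asking also for at least 1.5-fold left 3801, 3758, 4034, 3100 and 257 in the same order, by its construction. Without background correction, 396 probes changed at least 2-fold in the knockout. In the wild type median centring gave 2054 calls and an adjusted p of 0.01 gave 1604. Apart from the last, the cause was not tested. Leaving out each array in turn gave 13166 to 14384 calls in the knockout, 1019 to 1067 of at least 2-fold, 8316 to 11730 in clone 4, 10218 to 13345 in clone 7, 0 to 1000 for the clone difference, 7995 to 11408 for KO minus WT and 1570 to 3860 in the wild type. The count of 1000 came without the first clone 7 array at 72 h, which leaves the streaked array alone, and the wild-type counts of 1570 to 1703 came without each wild-type array. With the replicate number within a clone as a block, 13672 probes were called. Same-numbered arrays did not deviate together across probes (r of −0.05 in clone 4 and 0.01 in clone 7), and the main fit takes the numbers as names. In clone 7 the streaked array enters this r, which therefore cannot show whether same-numbered arrays shared a culture. For time in the knockout, the 24 leading probes kept their call in all 520 pairs of a probe and a setting. Keeping it without the streaked array was a condition of their choice. They were also chosen as the largest called changes without overlap between the times, so most settings could hardly remove a call. Pairs without a value were not counted: the authors' series table held 10 of the 12 leading rises and 7 of the 12 leading falls. The followed placed genes and Mir295 kept theirs in 617 such pairs and lost it in 31. Alternatives for the streaked region, the wild type, the clone difference and single placed genes were chosen after seeing the data. Dim signal limits the 10502 dimmest probes, 9.86% of which were called.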
